A study of Mus musculus with 6 samples.

Results

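Hepatocytes take up bile acids, hormones and drugs from sinusoidal blood through carriers of the SLC10, SLCO and SLC22 families. The 7 genes described here encode such carriers: Slc10a1, Slco1b2, Slco1a1, Slco1a4, Slco2b1, Slc22a7 and Slc22a5. Their members were every probe set annotated with exactly 1 gene symbol, that of one of these genes, which gave 16 of the 45037 probe sets other than array controls. All 7 genes had at least 1 probe set bright enough to be tested, and 14 of the 16 probe sets were tested.

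Expression was measured on Affymetrix arrays in livers of male mice aged 3 weeks. SRF is a transcription factor known for its control of actin and immediate early genes. All 6 mice carried AlfpCre, a transgene for Cre recombinase. The 3 control mice (Srf loxP/+ AlfpCre) had 1 loxP-flanked copy of Srf, so that 1 copy was targeted in controls too, and the 3 mutant mice (Srf loxP/loxP AlfpCre) had 2 such copies. The labels describe the mutant tissue as lacking Srf. Each array is 1 liver, so cells other than hepatocytes are included in every value. The question is how the liver's uptake carriers differ between these groups. AlfpCre is driven by albumin regulatory sequences with alpha-fetoprotein enhancers, which are active in hepatocytes and their fetal precursors. Which cells of these livers lost Srf was not tested.

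In liver, Slc10a1 encodes the main sodium-dependent importer of conjugated bile acids. The SLCO proteins work without sodium and accept bile acids, bilirubin conjugates, thyroid and steroid hormone conjugates and many drugs, with overlapping substrates. SLC22 proteins carry small organic anions, organic cations or carnitine. Slco1a1 is known to be more abundant in adult male than in adult female mouse liver.

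Values are log2 of the array signal after each array was scaled to a common trimmed mean. A background level was taken as the 95th percentile of 83 probe sets for olfactory, vomeronasal and taste receptors. It was 2.87 in controls and 3.04 in mutants; signals are compared between groups within a probe set, not between genes. The arrays did not vary alike: correlations across probe sets were 0.937 to 0.941 between controls and 0.827 to 0.907 between mutants, and mutant 1 lay farthest out on the first principal component (177, against -22.8 and 43.9 for mutants 2 and 3 and -77.5 to -50.6 for controls). The brighter Srf probe set (1418256_at) gave 5.31, 5.14 and 5.11 in controls 1 to 3 and 4.17, 5.24 and 2.54 in mutants 1 to 3. The dimmer one (1418255_s_at) gave 3.00, 3.69 and 3.37 on control arrays, and 3.29, 0 and 1.99 on those of mutants. On the brighter probe set the array labelled mutant 2 was inside the range of controls, and on the dimmer it was the lowest of all. No source used here tells which part of Srf either probe set reads, so they do not check the labels. An index of RNA quality, the mean log2 ratio of 3' to 5' control probe sets for Actb, Gapdh and Pcx, read 0.91, 0.78 and 1.22 for the control arrays, against 2.18, 1.18 and 1.57 for mutants 1 to 3 (two-sided exact permutation p = 0.2, where 3 against 3 arrays cannot go below 0.1). Hepatocyte markers were not lower in mutants by their sum, which the brightest of them set. Of 8 listed markers 7 were measured, and their summed scaled signal was 41758 to 47512 in controls and 49460 to 66866 in mutants. The difference was positive for 6 of them and negative for 1, Apob (-0.33). For any transcript, fewer cells of a type and less RNA per cell cannot be told apart in these whole-liver samples.

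None of the 7 genes passed the test over all probe sets (limma, adjusted p under 0.05), where 0.0304% of 13144 genes passed as higher in mutants and 0.0837% as lower. At an unadjusted p under 0.05, 2 of the 7 were higher (Slco1a4 and Slc22a5) and 3 lower (Slco1a1, Slco2b1 and Slc22a7), beside 7.36% and 7.01% of all genes. All 3 mutant arrays lay below all 3 controls for Slco1a1, Slco2b1 and Slc22a7, a pattern found in 10.8% of genes, and above them for Slco1a4, a pattern found in 14.1%. For Slc10a1, Slco1b2 and Slc22a5 the groups overlapped. The median difference over the 7 genes was -1.23 on the log2 scale, and 0.06 over all genes. Its median size without regard to sign was 2.03 for the 7 genes and 0.43 for all genes. The plot of signals by array gives every probe set on every array.

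**Figure D1:**
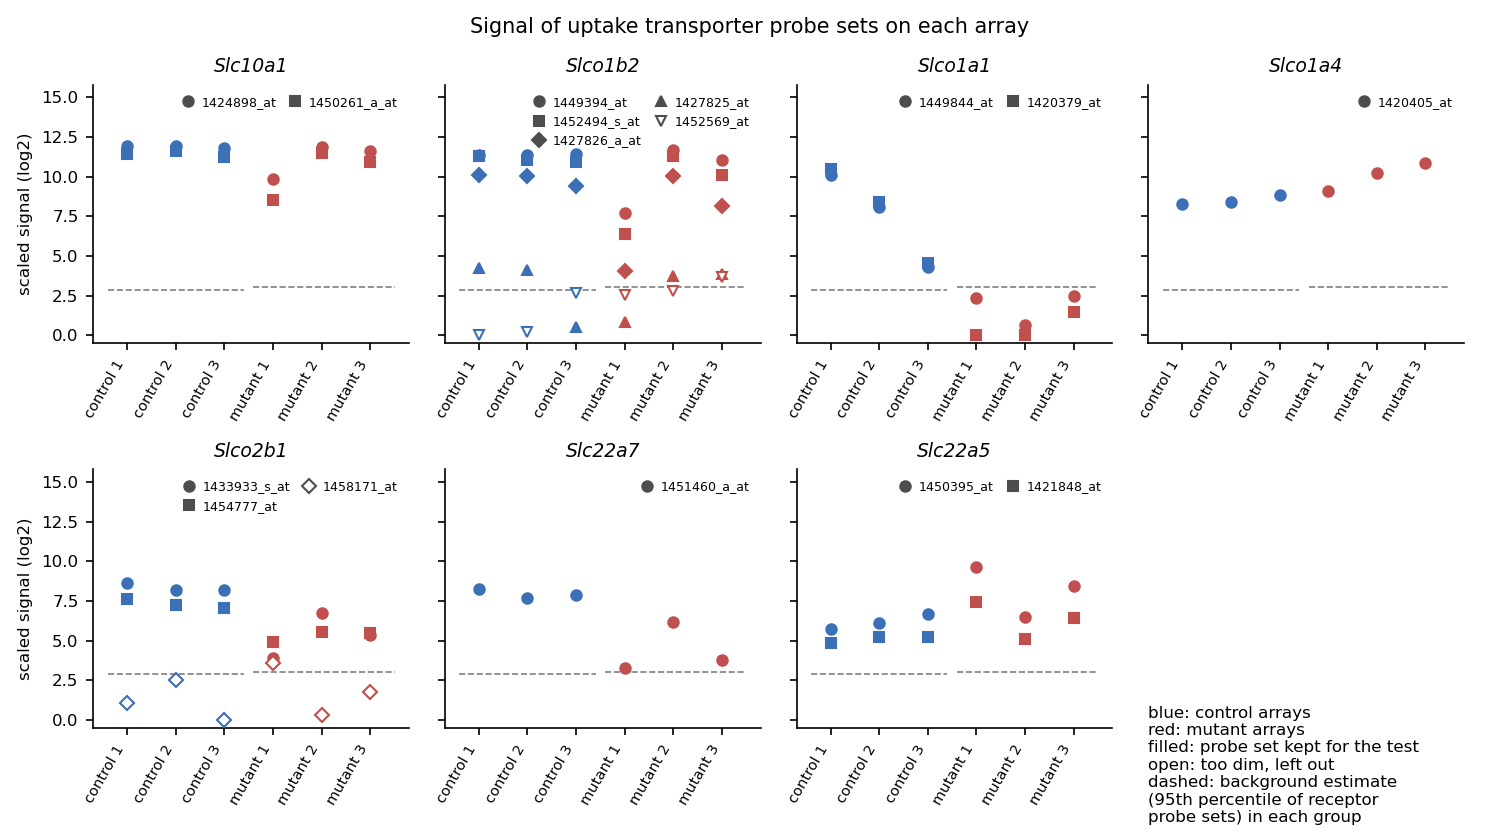
Scaled log2 signal of the 16 transporter probe sets (vertical axis) on each of the 6 arrays (horizontal axis), 1 panel per gene; blue points are controls, red points mutants, each marker shape is 1 probe set, open markers were too dim to test, and dashed lines are the background level. Mutant arrays lie below controls for Slco1a1, Slco2b1 and Slc22a7 on tested probe sets and above them for Slco1a4, while Slc10a1 and Slco1b2 are low mainly on mutant 1.

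The sodium-dependent bile acid importer Slc10a1 was close to control levels on 2 of the 3 mutant arrays. Its brighter probe set (1424898_at) gave 11.94, 11.94 and 11.77 on control arrays, against 9.83, 11.89 and 11.60 in mutants 1 to 3. Mutant 2 lay within the control range, mutant 3 slightly below it, and mutant 1 far below. The difference between the group means was -0.77 (SE 0.49, 95% interval -1.91 to 0.36, adjusted p = 0.462, limma). On the other probe set (1450261_a_at) mutant 1 was again far below the rest and mutant 2 within the control range, with 11.45, 11.64 and 11.26 on control arrays, against 8.51, 11.48 and 10.90 in mutants (difference -1.15, adjusted p = 0.438, limma). Without mutant 1 the brighter probe set differed by -0.14 (95% interval -0.49 to 0.21); that array was left out in view of its low value. With the 3' to 5' index as a covariate its difference was 0.48 (95% interval -0.30 to 1.25), opposite in sign. Mutant 1 also had the highest index of all arrays, and the part of RNA quality in the low value was not tested further.

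Slco1b2, the liver-specific mouse relative of the human drug and bilirubin carriers of the OATP1B type, followed the same array. Its brightest probe set (1449394_at) gave 11.37, 11.36 and 11.39 in controls, a spread of 0.015 (SD, n = 3), and 7.71, 11.67 and 11.04 in mutants 1 to 3. Mutant 2 was above and mutant 3 below all controls, so the groups overlapped. The mean difference was -1.23 (SE 0.89, 95% interval -3.28 to 0.81, adjusted p = 0.509, limma). Without mutant 1 it was -0.02 (95% interval -0.47 to 0.43), and with the 3' to 5' index as a covariate it was 1.07 (95% interval -0.37 to 2.50).

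The probe sets of Slco1b2 differed in size. On 1427826_a_at the signal was 10.12, 10.03 and 9.43 on control arrays, against 4.06, 10.01 and 8.12 in mutants (difference -2.46, adjusted p = 0.398, limma). Probe set 1452494_s_at, which can detect related transcripts, gave 11.30, 11.07 and 10.91 against 6.38, 11.29 and 10.13 (difference -1.83, adjusted p = 0.436, limma). Each of these 3 probe sets placed mutant 1 lowest and mutant 3 next. The dim probe set 1427825_at had 4.22, 4.12 and 0.53 on control arrays, against 0.84, 3.73 and 3.85 in mutants, with no separation (difference -0.15). The fifth, 1452569_at, was too dim to be tested, with signals between 0 and 3.66.

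Slco1a1, an organic anion carrier that is male-biased in adult liver, had the largest difference of the 7 genes and the largest spread among controls. On 1449844_at the scaled signals were 1107, 267 and 19.6 in controls 1 to 3 and 5.09, 1.53 and 5.64 in mutants, or 10.11, 8.06 and 4.30 against 2.35, 0.62 and 2.50 on the log2 scale. Each mutant array lay below each control and below the mutant background level, whereas all 3 controls were above theirs. The fitted difference was -5.67 (SE 1.31, 95% interval -8.68 to -2.66, adjusted p = 0.214, limma). Against the background level, the control mean was at least 21.8-fold higher than that of mutants, a bound that uses the mean of 3 unequal controls. On 1420379_at, controls gave 10.47, 8.39 and 4.58 and mutants 0, 0 and 1.48, where 0 is the floor set for signals under 1 (difference -7.32, adjusted p = 0.119, limma).

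Leaving out the bright control 1 gave -4.36 for Slco1a1 and leaving out the dim control 3 gave -7.27 (adjusted p = 0.680 and 0.0923, limma). With the 3' to 5' index as a covariate the difference was -5.39, nearly the same size (adjusted p = 0.929, limma). Because the mutant signals are below background, the exact size of these differences is not measured, and the probe sets were kept for the test through their control signals.

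Slco1a4, a carrier of bile acids, cardiac glycosides and other drugs in the same gene cluster, was higher in mutants. Its single probe set (1420405_at) gave 8.25, 8.40 and 8.85 on control arrays, against 9.09, 10.21 and 10.85 in mutants 1 to 3. The lowest mutant, mutant 1, exceeded the highest control by less than the controls differed among themselves. The mean went from 8.50 ± 0.31 to 10.05 ± 0.89 (SD, n = 3), a difference of 1.55 (SE 0.43, 95% interval 0.56 to 2.54) or 2.93-fold, and did not pass (adjusted p = 0.285, limma). Without mutant 1, the mutant closest to controls here, the difference was 2.03 and passed (adjusted p = 0.0259, limma). In that setting 78 of 13187 genes passed, against 15 of 13144 with all arrays. On the deposited scaling the groups overlapped, with 311, 436 and 520 in controls and 377, 1271 and 1457 in mutants, and the difference was 1.10 (adjusted p = 0.355, limma). With the 3' to 5' index as a covariate it was 2.13.

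**Figure D2:**
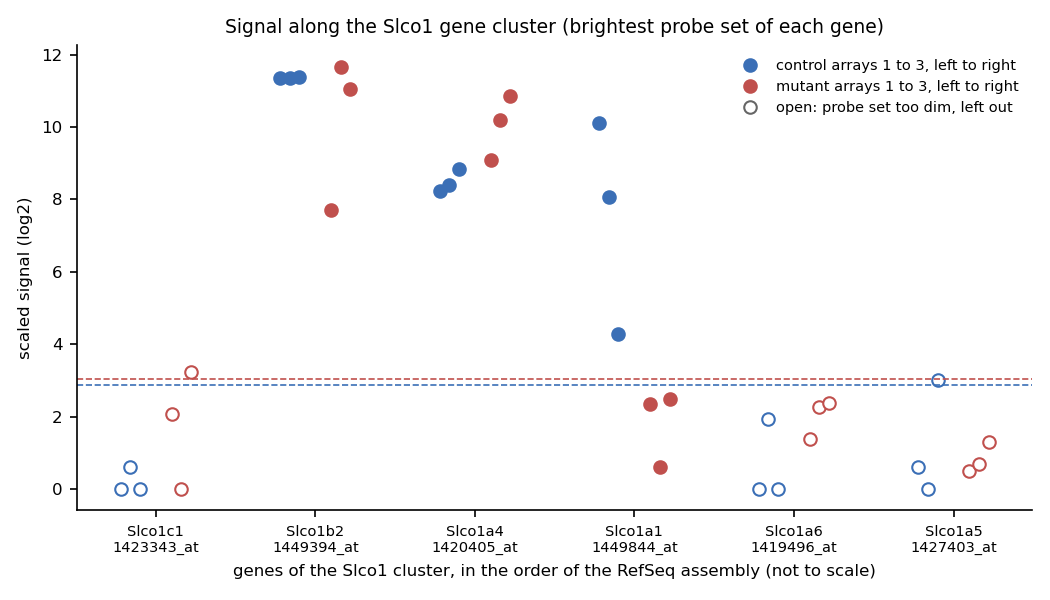
Scaled log2 signal (vertical axis) of the brightest probe set of each of 6 Slco1 genes, placed in their order on the RefSeq assembly and not to distance. Any other Slco1 genes were left out. Blue points are the 3 controls, red points the 3 mutants, and dashed lines the background level of each group. Slco1a4 is higher and Slco1a1 lower on every mutant array, while Slco1c1, Slco1a6 and Slco1a5 stay near or below background; heights of different genes are not comparable because their probes differ.

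The order of genes was taken for 6 Slco1 genes on mouse chromosome 6, all on the array, and any others were left out. Slco1b2, Slco1a4 and Slco1a1 are consecutive among these 6. Their flanking relatives were too dim to be tested: Slco1c1 (1423343_at) gave 0 to 0.61 in controls and 0 to 3.23 in mutants, Slco1a6 (1419496_at) 0 to 1.95 and 1.38 to 2.38, and the brighter Slco1a5 probe set (1427403_at) 0 to 3.02 and 0.51 to 1.31. Within each array, the log2 ratio of 2 measured signals does not depend on how the array was scaled. For Slco1a1 to Slco1a4 it was 1.87, -0.34 and -4.55 on control arrays. In mutants Slco1a1 was not above the background level and was set to that 1 level. The ratio was then at most -6.05, -7.16 and -7.81 in mutants 1 to 3. These limits do depend on the scaling, and they vary between mutants through Slco1a4 alone. The groups did not overlap (two-sided exact permutation p = 0.1), with means of -1.01 in controls and at most -7.01 in mutants. The ratio of Slco1b2 to Slco1a4 shifted by -2.79, also without overlap (exact permutation p = 0.1). With measured signals throughout, the groups did not overlap for 14 of the 21 pairs of the 7 genes, so separation of a pair was not unusual here. Over all 21 pairs, the smallest p adjusted over the 21 exact permutation tests was 0.15.

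The RefSeq promoter windows of Slco1b2, Slco1a4, Slco1a1 and Slc10a1 are printed below because the genes differed in how their signal behaved on the mutant arrays. Each runs from 250 bases before to 50 after the annotated start, 5′ to 3′ on the strand of the gene, in build GRCm38.p6. They lie at chr6:141629268-141629567 (plus strand) for Slco1b2, chr6:141856171-141856470 (minus strand) for Slco1a4, chr6:141946913-141947212 (minus strand) for Slco1a1 and chr12:80968656-80968955 (minus strand) for the first of 2 windows of Slc10a1. Capitals mark every match, on either strand, to 4 motifs: the CArG box bound by SRF, TTCNNNGAA (bound by STAT5), GTTAAT (a part of the site bound by HNF1) and AGGTCA (the core bound by many nuclear receptors).
Slco1b2: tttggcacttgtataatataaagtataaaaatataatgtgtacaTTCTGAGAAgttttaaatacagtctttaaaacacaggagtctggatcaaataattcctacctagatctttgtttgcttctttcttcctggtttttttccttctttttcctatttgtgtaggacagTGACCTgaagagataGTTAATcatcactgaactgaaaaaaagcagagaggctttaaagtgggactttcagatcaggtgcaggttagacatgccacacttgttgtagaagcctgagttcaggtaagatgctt
Slco1a4: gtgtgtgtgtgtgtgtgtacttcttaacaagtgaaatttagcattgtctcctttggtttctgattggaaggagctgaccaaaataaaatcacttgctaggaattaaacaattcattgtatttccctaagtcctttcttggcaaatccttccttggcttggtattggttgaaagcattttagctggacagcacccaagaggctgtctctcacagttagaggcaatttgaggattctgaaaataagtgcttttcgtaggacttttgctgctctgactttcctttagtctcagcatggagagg
Slco1a1: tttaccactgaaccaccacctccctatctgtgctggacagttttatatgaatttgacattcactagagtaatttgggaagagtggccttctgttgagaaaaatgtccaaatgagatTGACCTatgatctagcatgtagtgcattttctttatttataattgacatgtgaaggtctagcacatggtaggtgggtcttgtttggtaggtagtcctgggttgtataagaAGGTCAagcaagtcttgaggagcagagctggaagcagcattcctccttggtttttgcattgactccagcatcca
Slc10a1: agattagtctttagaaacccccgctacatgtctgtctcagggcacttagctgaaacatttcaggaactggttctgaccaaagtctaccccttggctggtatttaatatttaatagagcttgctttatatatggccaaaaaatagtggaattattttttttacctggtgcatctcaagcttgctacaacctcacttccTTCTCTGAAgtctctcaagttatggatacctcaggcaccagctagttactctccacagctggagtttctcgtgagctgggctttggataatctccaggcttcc

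In these windows Slco1b2 held TTCTGAGAA at -206 from the start, TGACCT (the reverse complement of AGGTCA) at -81 and GTTAAT at -66. The Slco1a1 window held 2 AGGTCA matches, at -134 on the opposite strand and at -24, and that of Slco1a4 held no match to the 4 motifs. The Slc10a1 window held TTCTCTGAA at -53. Windows were found for 6 of the 7 genes, Slc22a7 being the exception, and there were 9 in all. No CArG box was found in the 9 windows, and 1.63% of all 32851 windows hold one. TTCNNNGAA was in 4 of the 9 against 8.30% of all windows, AGGTCA in 3 against 16.3%, and GTTAAT in 1 against 7.10%. Several windows belong to 1 gene, a match of letters is not a binding site, and nothing follows from a missing match for sequence outside the window.

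Slco2b1, a carrier of sulfated steroids and many drugs, was lower in all 3 mutants. The brightest probe set, 1433933_s_at, a shared one that can detect related transcripts, gave 8.61, 8.20 and 8.22 on control arrays, against 3.88, 6.71 and 5.34 in mutants 1 to 3. Mutant 2 was closest to the controls and still below the lowest of them. The difference was -3.03 (SE 0.62, 95% interval -4.47 to -1.59, adjusted p = 0.167, limma), so that controls were 8.17-fold higher. The second probe set, 1454777_at, gave 7.63, 7.22 and 7.08 on control arrays, against 4.88, 5.55 and 5.46 in mutants. Here the mutants agreed within 0.36 (SD, n = 3), the difference was -2.01 (SE 0.29), and its adjusted p of 0.0757 (limma) was the smallest of the 14 probe sets. The third probe set (1458171_at) had both group means below background and was not tested.

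Slc22a7, which encodes OAT2, a carrier of small organic anions, had 1 probe set (1451460_a_at). Its signals were 8.28, 7.67 and 7.90 on control arrays, against 3.27, 6.16 and 3.80 in mutants 1 to 3. Mutant 1 was near background, and mutant 2 was again the mutant closest to controls. The mean went from 7.95 ± 0.31 to 4.41 ± 1.53 (SD, n = 3), a difference of -3.54 (SE 0.68, 95% interval -5.10 to -1.98) or 11.6-fold. By the brightest kept probe set of each of the 7 genes, Slc22a7 had the smallest p, without passing (adjusted p = 0.149, limma). Without mutant 2 the difference of Slc22a7 was -4.41 (adjusted p = 0.00242, limma) and that of Slco2b1 was -3.73 (adjusted p = 0.0142, limma), so that both passed. Leaving out the mutant closest to controls enlarges a difference by itself. In that setting 308 of 13170 genes passed, against 15 of 13144 with all arrays. With the 3' to 5' index as a covariate the differences of Slc22a7 and Slco2b1 were -2.03 and -1.43 (adjusted p = 0.912 and 0.911, limma).

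Slc22a5 encodes OCTN2, which imports carnitine, the carrier of long-chain fatty acids into mitochondria. On 1450395_at it gave 5.76, 6.09 and 6.67 on control arrays, against 9.64, 6.50 and 8.46 in mutants 1 to 3. Mutants 1 and 3 were above all controls and mutant 2 was within their range. The difference was 2.03 (SE 0.71, 95% interval 0.40 to 3.65, adjusted p = 0.326, limma), or 4.08-fold. On the second probe set (1421848_at) mutants 1 and 3 were again above all controls and mutant 2 within their range, with 4.87, 5.24 and 5.19 on control arrays, against 7.41, 5.07 and 6.41 in mutants (difference 1.19, adjusted p = 0.372, limma). Without mutant 2, the mutant closest to controls, the brighter probe set differed by 2.88 and passed (adjusted p = 0.0299, limma). In that setting 308 of 13170 genes passed. With the 3' to 5' index as a covariate the difference was 0.13 (95% interval -0.86 to 1.12).

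**Figure D3:**
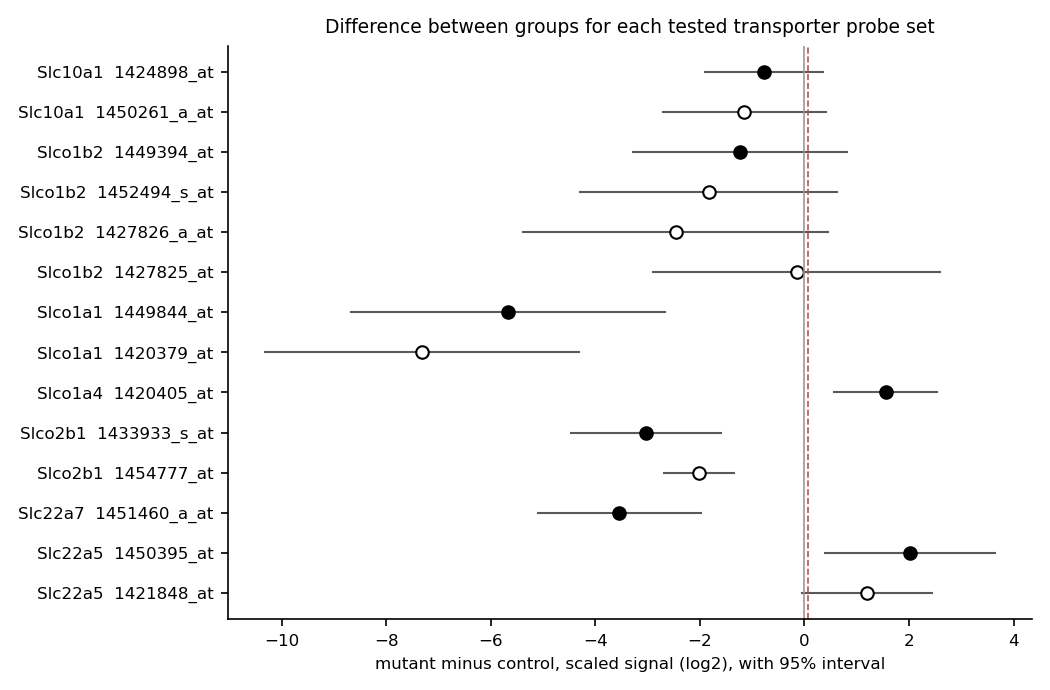
Difference between mutant and control means in scaled log2 signal (horizontal axis) for the 14 tested transporter probe sets, with 95% intervals from limma that are not adjusted for the number of tests; filled points are the brightest probe set of each gene, open points its other probe sets, the grey line is 0 and the red dashed line the median of all genes (0.06). Intervals of Slco1a1, Slco2b1 and Slc22a7 lie wholly below 0 and those of Slco1a4 and the brighter Slc22a5 probe set wholly above.

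The 3 mutant arrays did not share 1 order across the genes. Relative to the control mean, mutant 1 stood at -2.05 for Slc10a1, -3.66 for Slco1b2, -4.46 for Slco2b1, -4.68 for Slc22a7 and 3.46 for Slc22a5. In mutant 2 the same genes stood at 0.01, 0.29, -1.63, -1.79 and 0.33. Mutant 3 had -0.28, -0.34, -3.00, -4.15 and 2.29. For these 5 genes mutant 1 was thus the most distant from controls. Slco1a4 was farthest out in mutant 3, at 0.59, 1.71 and 2.36, and Slco1a1, below background in all 3 mutants, gives them no order. The plot of differences under other settings shows which genes depend on single arrays or on the index of RNA quality.

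**Figure D4:**
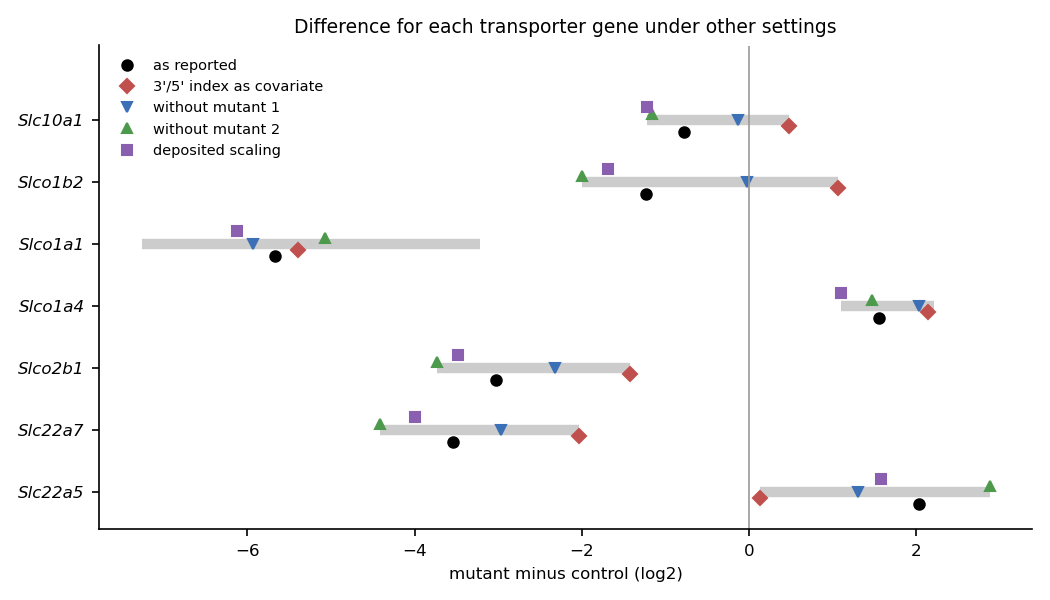
Difference between mutant and control means (log2, horizontal axis) for the brightest kept probe set of each transporter gene as reported (black) and under 4 other settings. The grey bar spans the reported value and all 18 other settings, of which 1 averages a gene's probe sets. After log2(signal + 32) the brightest Slco1a1 probe set was 1420379_at, which gave -3.21, the end of its bar nearest 0. Slc10a1 and Slco1b2 lie near 0 without mutant 1 and above 0 with the 3' to 5' index as a covariate. Slc22a5 lies near 0 with that covariate, without a change of sign. Slco1a1, Slco1a4, Slco2b1 and Slc22a7 also keep their direction in each setting drawn.

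Profiles most like each carrier were named by the smallest root mean squared difference over the 6 arrays, after each profile was centred on its own mean. They are a description of 6 arrays that share 2 groups. Nearest to Slco1a1 were Hsd3b5, a male-biased liver steroid dehydrogenase (0.97), Mup10, a major urinary protein (1.07), and Serpina4-ps1 (1.11). Like Slco1a1, Hsd3b5 (1420531_at) spanned the controls widely, at 10.38, 7.23 and 2.85, and was at the floor on all 3 mutant arrays. Nearest to Slco2b1 were Cyp4f14 (0.15), Cmah (0.18) and Cdca7l (0.22), and nearest to Slc22a7 were Ifi44l (0.23), Kif20a (0.25) and Cyp2u1 (0.27). Mutant means of Cdca7l, Ifi44l, Kif20a and Cyp2u1 were below background (1.90, 1.29, 0.70 and 2.21). These matches thus rest partly on signals that are not measured above background. Nearest to Slc22a5 were Gm11827 (0.14), Nnmt (0.20) and Pnpla2, the adipose triglyceride lipase (0.26). The nearest profile to Slc10a1 was that of Ece1 (0.04), to Slco1b2 that of AI506816 (0.07) and to Slco1a4 that of Anxa13 (0.21). The mutant mean of AI506816 was also below background (2.87 against 3.04).

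None of the other carriers of the 3 families passed. The SLC22 list had 10 of 23 genes tested, of which an unadjusted p under 0.05 was reached by 1 as higher and 2 as lower, beside 7.36% and 7.01% of all genes. Its lowest adjusted p belonged to Slc22a26, with 5.71, 6.06 and 6.53 on control arrays, against 3.39, 4.24 and 4.07 in mutants (difference -2.20, adjusted p = 0.0888, limma). Slc22a30 followed, with 9.38, 9.41 and 8.34 on control arrays, against 2.46, 6.59 and 4.89 in mutants (difference -4.40, adjusted p = 0.168, limma). Both had groups that did not overlap, as 10.8% of genes did in this direction. Of the other SLC10 genes 3 of 6 were tested and of the other SLCO genes 3 of 13, with no unadjusted p under 0.05. Among them Slc10a6, a sulfated steroid carrier, gave 3.07, 3.53 and 3.30 on control arrays, against 7.11, 3.58 and 4.03 in mutants. All 3 mutants lay above all controls, a pattern found in 14.1% of genes, but only mutant 1 was far above.

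Export carriers gave the 1 pass among these lists. Abcc4, which exports bile acid and steroid conjugates to blood, rose by 2.69 in log2 signal (SE 0.29, adjusted p = 0.0363, limma), with 4.18, 3.94 and 4.02 on control arrays, against 7.18, 6.44 and 6.59 in mutants. The other 13 of 14 tested export genes did not pass. Abcg2, a canalicular drug exporter, gave 9.24, 8.51 and 8.34 on control arrays, against 6.63, 8.04 and 7.97 in mutants (difference -1.15, adjusted p = 0.336, limma). The median difference over the export list was 0.19.

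Of the receptors and transcription factors known to act on these carriers, 16 of 17 listed were tested and none passed. The hepatocyte factor Hnf4a gave 10.29, 10.27 and 10.21 on control arrays, against 10.39, 10.37 and 10.90 in mutants, and the bile acid receptor Nr1h4 gave 8.69, 8.37 and 8.69 against 8.13, 8.36 and 8.43. Their differences were 0.30 and -0.28 (adjusted p = 0.518 and 0.537, limma). Nr0b2, the small heterodimer partner induced by Nr1h4, gave 7.18, 8.99 and 9.54 on control arrays, against 1.10, 7.94 and 5.59 in mutants (difference -3.69, adjusted p = 0.355, limma). The growth hormone receptor Ghr gave 11.37, 11.05 and 11.07 against 6.82, 10.40 and 9.51 (difference -2.26, adjusted p = 0.326, limma). Hnf4a and Nr1h4 were chosen for naming after their values were seen.

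Bile acid synthesis had 14 of 15 genes tested and none passed. With an unadjusted p under 0.05 there were 2 as higher and 4 as lower of the 14, beside 7.36% and 7.01% of all genes, with a median difference of -0.73. Cyp39a1, an oxysterol hydroxylase, gave 6.73, 8.17 and 8.52 on control arrays, against 9.97, 10.31 and 10.54 in mutants (difference 2.47, adjusted p = 0.121, limma). Cyp7b1, another oxysterol hydroxylase that is male-biased in mouse liver, gave 8.37, 7.63 and 7.15 against 4.27, 6.61 and 6.12 (difference -2.05, adjusted p = 0.294, limma). For carnitine handling, beside the importer Slc22a5, 8 of 8 genes were tested and none passed. Crot, the peroxisomal octanoyltransferase, gave 11.19, 11.06 and 10.99 on control arrays, against 10.20, 10.11 and 10.01 in mutants, a tight pair of groups (difference -0.97, adjusted p = 0.151, limma). Crat, carnitine acetyltransferase, gave 5.40, 5.90 and 5.99 against 6.60, 6.56 and 7.74 (difference 1.20, adjusted p = 0.307, limma).

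Some markers of other liver cells were lower on all 3 mutant arrays. Of 9 stellate cell markers 8 had a negative difference, 3 had groups that did not overlap, lower in mutants, as 10.8% of all genes did, and 4 had an unadjusted p under 0.05 as lower, beside 7.01% (median difference -1.15; none passed, limma). The collagen gene Col3a1 gave 9.77, 9.76 and 9.69 on control arrays, and 3.56, 8.61 and 6.38 on those of mutants (difference -3.56, adjusted p = 0.296, limma). Col1a1 and Col1a2 were the others whose groups did not overlap, at -2.53 and -1.93; these 3 collagen genes were chosen for naming after their values were seen. Over the 9 stellate cell markers the summed scaled signal, which the brightest of them set, was 2773 to 3028 in controls and 845, 2856 and 1504 in mutants 1 to 3, and over 8 endothelial markers it was 659 to 961 against 352, 1344 and 657. Over 9 Kupffer cell markers it was 1676 to 2312 in controls and 1130, 1824 and 1233 in mutants. Mutant 1 was lowest and mutant 2 highest of the mutants in each, the same arrays that bounded Slc10a1 and Slco1b2. Cholangiocyte markers were dim, with sums of 39.1 to 44.7 and 43.1 to 67.1 over 6 genes, and Cftr and Slc10a2 were below background in both groups. The 7 lymphocyte markers summed to 92.3 to 120 in controls and 41.6 to 124 in mutants, with Cd3e and Nkg7 below background, and 5 erythroid markers to 439 to 967 and 332 to 776, with Hba-a1 below background. Of 7 kidney and gut markers Umod, Lct and Vil1 were below background. The sum, which its brightest member set in controls, was 465 to 803 in controls and 68.7 to 280 in mutants. Of the 5 tested, 3 had a negative difference and 2 a positive one. The brightest, the gut fatty acid binding protein gene Fabp2, was named after its values were seen. It had log2 signals of 9.57, 8.75 and 9.29 on control arrays, and 4.48, 8.04 and 7.78 on those of mutants. The part of any of these cells in the carriers' values was not tested.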

How the data were processed

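Total RNA of 6 mouse livers, 3 per group by sample title, was hybridised to 1 array each. The deposited values were linear intensities per probe set, made by the authors with GCOS, the Affymetrix scanner software, per the submitters' processing notes; the labels name no algorithm, scaling target, genome build or batch. No arrays were copies of each other. Trimmed means of the deposited intensity (2% trimmed at each end) were 55.2 to 69.9 in controls and 37.3 to 58.1 in mutants. Each array was multiplied to their mean, signals under 1 were set to 1, then converted to log2. Probe sets in the lowest 40% by mean signal (under 2.10 in log2) were dropped, leaving 27022. Symbols came from the platform annotation, updated by Entrez identifier for 34741 of 34945 probe sets with 1 symbol. A gene was represented by its brightest kept probe set (13144 genes).

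The test was limma 3.58.1 in R 4.3.3 (lmFit, eBayes with a variance trend), two-sided; p-values were adjusted by Benjamini-Hochberg across the kept probe sets. The number of arrays limits the precision. Each group is described as 3 mice. Members, gene lists and tests were chosen with earlier results of these data known. Named genes were all members, Srf, up to 4 genes of smallest adjusted p per list and the 3 nearest profiles per member; Hnf4a, Nr1h4, 3 collagen genes and Fabp2, outside this rule, were added after their values were seen. Within-array ratios and the count of groups not overlapping were added after the data were seen.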

Additional observations from a re-analysis of the deposited data

How the results depend on the processing

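With 3 arrays per group the calls depended on the setting, while directions mostly did not. Of the 7 carriers, Slco1a1, Slco1a4, Slco2b1, Slc22a7 and Slc22a5 kept their direction in all 18 other settings. Slc10a1 and Slco1b2 did in 17 of 18, the exception being the 3' to 5' index as a covariate (0.48 and 1.07); why the sign turned was not tested. The number of carriers passing (limma, adjusted p under 0.05) was 0 as reported, beside 15 of 13144 genes. With array weights it was 5 (Slco1a1, Slco1a4, Slco2b1, Slc22a7 and Slc22a5), beside 1652 of 13144 genes. After log2(signal + 32) it was 1 (Slc22a7), beside 67 of 13167. It ranged from 0 to 3 when single arrays were left out. Without mutant 1 it was 1 (Slco1a4), beside 78 of 13187 genes. Without mutant 2 it was 3 (Slco2b1, Slc22a7 and Slc22a5), beside 308 of 13170. The number of carriers whose groups did not overlap was 4 as reported (24.9% of all genes), 3 on the deposited scaling (23.5%) and 4 to 7 without single arrays, 6 without control 3 (34.9%) and 7 without mutant 2 (46.2%); 3 against 2 arrays separate more genes than 3 against 3. Over the 18 settings the adjusted p ranged from 0.19 to 0.929 for Slc10a1, 0.198 to 0.973 for Slco1b2, 0.022 to 0.929 for Slco1a1, 0.00259 to 0.695 for Slco1a4, 0.00186 to 0.911 for Slco2b1, 0.00158 to 0.912 for Slc22a7 and 0.014 to 0.975 for Slc22a5 (limma).

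Over all genes, 15 passed as reported, 4 higher and 11 lower, a split of 3 and 18 on the deposited scaling and 4 and 19 after median centring. The number was 23 after median centring of each array, 0 by limma when dim probe sets were also tested (2170 genes at an unadjusted p under 0.05), 37 and 9 with 20% and 60% of probe sets left out, 67 after log2(signal + 32), 5 without the variance trend, 1652 with array weights and 3 with the 3' to 5' index. It was 1 to 308 without single arrays, the highest without mutant 2. The deposited scaling moved the median of all genes to -0.39 from 0.06. Replicate numbers gave no pairing by the data (correlations of deviations of same-numbered arrays -0.04, 0.02 and 0.04), and with the replicate block 0 carriers and 14 genes passed.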
